A study of Homo sapiens with 9 samples.

Results

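The genes described here are NFE2L2, which encodes the transcription factor NRF2, and 8 genes that NRF2 is known to induce, namely NQO1, HMOX1, GCLM, GCLC, TXNRD1, SRXN1, SLC7A11 and AKR1C1. They were taken by symbol as a textbook set, with earlier results of these data known. They are 9 of the 59293 genes in the expression tables. All 9 had enough reads to be tested, among 15139 tested genes in all. The reads and the abundance of each gene are sums over its annotated transcripts.

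The data were 9 poly(A)-selected RNA libraries of MCF10A-YAP cells. MCF10A cells are human breast epithelial cells, immortalised but not transformed, and all cells here carry an overexpressed, constitutively active form of YAP, the transcription coactivator at the end of the Hippo pathway. The cells were transduced with a vector carrying the single guide RNA (sgRNA) TRAM2-KO1 or TRAM2-KO2, both directed against TRAM2, or with a non-targeting control sgRNA. Each of the 3 groups had 3 libraries, called A, B and C, from cells that were selected with antibiotic. Values by library are given in that order. TRAM2 belongs to the translocon, the pore of the endoplasmic reticulum for newly made secreted and membrane proteins. No inducer of oxidative stress is named for any group, so the comparisons ask how far the antioxidant genes differed after TRAM2 was targeted. The study reports that targeting TRAM2 inhibited the proliferation of MCF10A-YAP cells. The growth state of these cultures at harvest is not given, and its part in the results was not tested. The study describes cells transduced with these guides as populations, and both guides were set against the same control libraries.

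NRF2 is controlled mostly at the level of its protein. KEAP1, the substrate adaptor of a CUL3 ubiquitin ligase, holds NRF2 for degradation, and electrophiles or oxidants that modify KEAP1 let NRF2 accumulate, enter the nucleus and bind antioxidant response elements together with small MAF proteins. Its target genes take up cystine, make glutathione, reduce thioredoxin, and detoxify quinones, haem and carbonyls. mRNA levels therefore report on the output of the pathway, whereas the activity of NRF2 itself need not follow the mRNA of NFE2L2.

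SLC7A11, the cystine transporter subunit that supplies glutathione synthesis, was the member with the lowest p in each comparison with control, being 22.3% higher in TRAM2-KO1 cells and 24.2% higher in TRAM2-KO2 cells in reads. Its summed TPM, 7.74 in TRAM2-KO1 and 8.29 in TRAM2-KO2 against 7.50 in control cells, showed little of that rise, and neither call held with offsets for transcript length. TXNRD1, which encodes thioredoxin reductase, was 11.7% higher in TRAM2-KO1 than in control cells and 10.6% lower in TRAM2-KO2 than in TRAM2-KO1 cells in reads. In its summed TPM the libraries of these groups overlapped. NQO1 and SRXN1 were 9.99% and 9.15% higher when the mean of both guides was set against control. NFE2L2, GCLM, GCLC, HMOX1 and AKR1C1 did not pass the test in any comparison. No member changed by more than 0.5 on the log2 scale with an adjusted p under 0.05, the limits the study used for a called gene. Of all 15139 tested genes few did so, namely 73 with TRAM2-KO1, 98 with TRAM2-KO2, 60 for the mean of both and 72 between the guides.

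Libraries held between 21.7 and 27.6 M estimated reads, and mitochondrial genes took 2.74% to 3.93% of them. TRAM2 itself had 219, 210 and 203 CPM (reads scaled to a common library size) in TRAM2-KO1 libraries and 216, 212 and 211 CPM in TRAM2-KO2 libraries, against 481, 465 and 475 CPM in control libraries, so the targeted gene followed the labels. The epithelial keratins KRT5 and KRT8 stood between 1003 and 1264 CPM in all libraries, while TP63, a defining gene of basal breast cells, had at most 0.11 CPM. Of the immune markers, CD3E and MS4A1 had no reads, PTPRC at most 0.0462 CPM and CD14 at most 0.531 CPM. Of the endothelial markers, VWF and CDH5 had at most 0.112 CPM and KDR 1.98 to 2.30 CPM. Of the fibroblast markers other than FAP, LUM had the highest level, at most 1.63 CPM, followed by COL1A1 with at most 1.16 CPM. The 8 fibroblast markers summed to between 118 and 136 CPM in TRAM2-KO1 and between 122 and 125 CPM in TRAM2-KO2 libraries, against 139.7 to 145 CPM in control libraries, and 1 of them, FAP, made up nearly all of that sum. The 10 epithelial markers summed to 4965 to 5312 CPM in TRAM2-KO1 and 5797 to 6182 CPM in TRAM2-KO2 libraries, against 5258 to 5423 CPM in control libraries. The part of either sum in the results was not tested, and in RNA from whole cultures fewer cells of a type and less RNA per cell cannot be told apart. TRAM2-KO1 B and C stood apart in base composition. The correlation across genes between a library's deviation and GC content (Spearman) was -0.53 in TRAM2-KO1 B and -0.36 in TRAM2-KO1 C, 0.18 in TRAM2-KO1 A, -0.09 to 0.40 in TRAM2-KO2 and 0.15 to 0.25 in control libraries. Some of the results that rest on TRAM2-KO1, but not all, are therefore also given with that trend removed or with TRAM2-KO1 A alone. For TRAM2-KO1 A alone only the log2 fold change is given and no p, because a single library is no replicated group.

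The members spanned more than 2 orders of magnitude in abundance. In TPM, a unit that allows for transcript length, TXNRD1, a selenoprotein that keeps thioredoxin reduced, averaged 322 ± 18.2 in TRAM2-KO1 and 299 ± 22.4 in TRAM2-KO2 cells, against 300.4 ± 3.11 in control cells (SD, n = 3 each). Its control level was above that of 97.0% of the tested genes. NQO1, the quinone reductase, followed with 226 ± 14.8 TPM in TRAM2-KO1 and 226 ± 8.87 TPM in TRAM2-KO2 cells, against 202 ± 3.68 TPM in control cells. SRXN1 had 56.4 TPM on average in control cells, GCLM 49.9, NFE2L2 40.6, GCLC 33.4, HMOX1 14.1, SLC7A11 7.50 and AKR1C1 2.20 TPM. The order was the same in all 9 libraries, but the ranges over the libraries overlapped between SRXN1 and GCLM (53.5 to 64.2 against 47.2 to 56.9 TPM) and between NFE2L2 and GCLC (39.0 to 42.3 against 30.3 to 39.5 TPM). AKR1C1, at the low end, was above only 24.4% of the tested genes in control cells.

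Antioxidant response elements share the core TGACNNNGC, which was searched on both strands in the 250 bases before each RefSeq gene start (GRCh38.p14). NFE2L2, GCLM, GCLC, TXNRD1, NQO1, SRXN1 and AKR1C1 matched 9 such windows, and the core was found in the GCLM window and in both TXNRD1 windows. The core was present in 10.9% of 35116 windows of the same length and in 15.8% of the 10907 tested genes with a window. No window was available for SLC7A11 or HMOX1, so these genes were not searched. The windows of TXNRD1, NQO1 and SRXN1, the other members that passed a test, are shown with that of GCLM. They are written 5′ to 3′ on the strand of the gene, with a match to the core in capitals. They lie at chr12:104215529-104215778 (plus strand) and chr12:104286782-104287031 (plus) for TXNRD1, chr1:93909431-93909680 (minus) for GCLM, chr16:69726561-69726810 (minus) for NQO1 and chr20:653201-653450 (minus) for SRXN1.
TXNRD1, first start: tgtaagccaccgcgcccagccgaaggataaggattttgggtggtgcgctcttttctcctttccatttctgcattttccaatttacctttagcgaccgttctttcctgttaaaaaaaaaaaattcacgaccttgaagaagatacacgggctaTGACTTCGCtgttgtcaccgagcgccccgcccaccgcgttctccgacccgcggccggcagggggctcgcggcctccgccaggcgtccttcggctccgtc
TXNRD1, second start: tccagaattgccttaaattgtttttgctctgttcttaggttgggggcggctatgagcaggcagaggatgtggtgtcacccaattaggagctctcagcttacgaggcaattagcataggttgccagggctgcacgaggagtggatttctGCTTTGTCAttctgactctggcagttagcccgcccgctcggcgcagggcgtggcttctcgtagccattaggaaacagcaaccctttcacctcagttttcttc
GCLM: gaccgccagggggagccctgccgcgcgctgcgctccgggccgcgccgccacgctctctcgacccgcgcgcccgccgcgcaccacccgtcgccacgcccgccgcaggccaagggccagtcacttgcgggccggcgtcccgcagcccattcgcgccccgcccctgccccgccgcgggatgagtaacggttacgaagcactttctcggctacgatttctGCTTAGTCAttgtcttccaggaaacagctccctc
NQO1: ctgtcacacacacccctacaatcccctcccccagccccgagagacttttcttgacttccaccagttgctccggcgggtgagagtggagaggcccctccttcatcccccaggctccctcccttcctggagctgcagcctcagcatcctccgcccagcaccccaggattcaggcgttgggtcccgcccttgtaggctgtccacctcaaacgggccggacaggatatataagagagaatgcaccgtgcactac
SRXN1: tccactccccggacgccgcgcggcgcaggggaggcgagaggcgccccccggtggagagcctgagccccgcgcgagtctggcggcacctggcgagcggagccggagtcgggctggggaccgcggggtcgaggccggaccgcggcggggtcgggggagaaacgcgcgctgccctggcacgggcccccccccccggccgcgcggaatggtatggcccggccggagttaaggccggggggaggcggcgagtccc

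The core began 99 bases before the first TXNRD1 start on the plus strand of the gene, 102 bases before the second on the opposite strand, and 34 bases before the GCLM start on the opposite strand. A match is a run of letters and not a measured binding site. GCLM, whose window holds a match, did not pass a test. NQO1 and SRXN1, whose windows hold none, passed in the mean of both guides. Sequence outside these short windows was not searched, so elements further from a start could not be found. A window without a match therefore does not show that a gene lacks an antioxidant response element. The part of such elements in the results was not tested.

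NFE2L2 (chromosome 2, 178083395 to 178257484, minus strand; gene positions are on GRCh37) encodes NRF2 itself. It had 80.2, 81.9 and 80.7 CPM in TRAM2-KO1 libraries, 78.6, 77.5 and 81.4 CPM in TRAM2-KO2 libraries and 77.9, 80.5 and 82.2 CPM in control libraries. The 3 groups overlapped. The log2 fold change (log2FC) was 0.01 (standard error, SE, 0.0339; edgeR adjusted p = 0.876) with TRAM2-KO1 and -0.02 (SE 0.0338; adjusted p = 0.892) with TRAM2-KO2. For the mean of both guides the 95% interval of the log2FC was -0.07 to 0.06. Between 1773 and 2232 reads per library stood behind these values, of which 93.9% on average were assigned to 1 coding transcript.

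**Figure D1:**
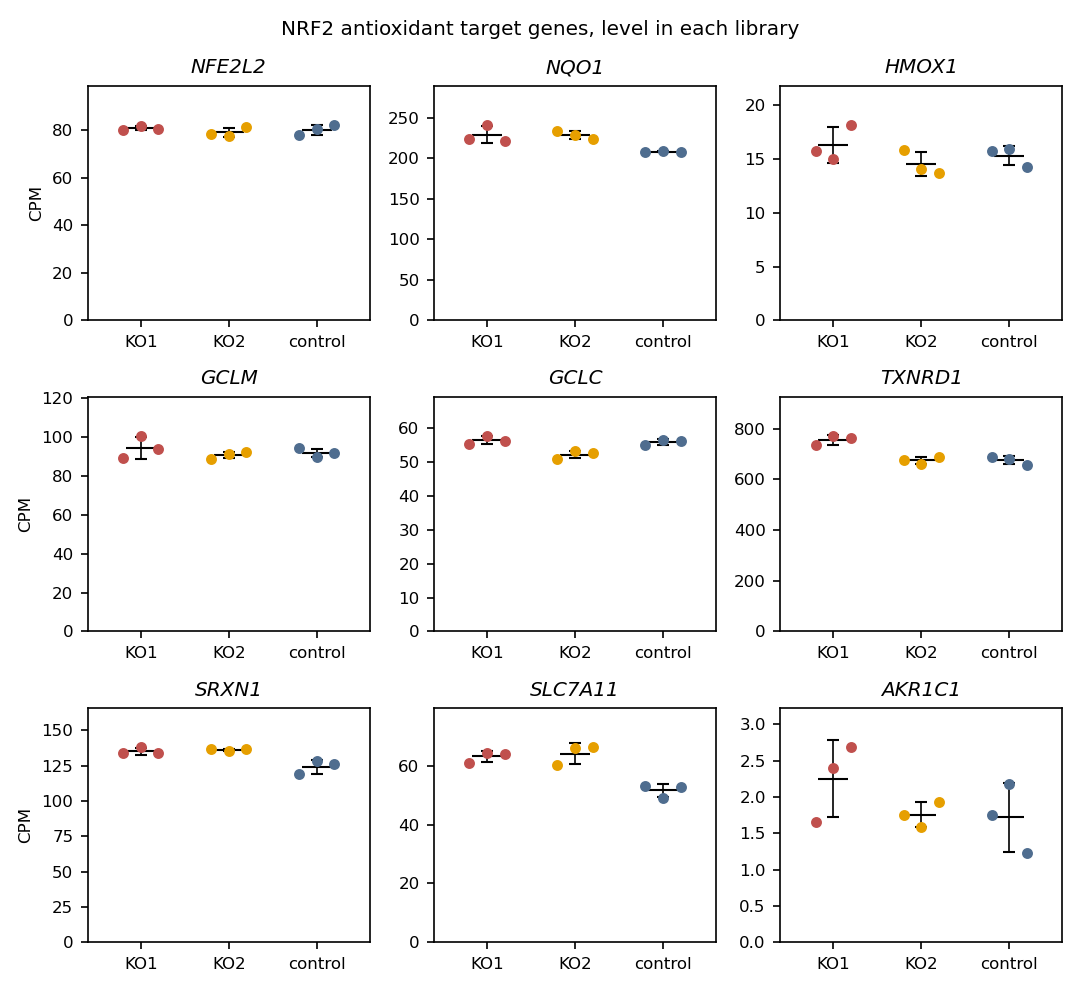
CPM of each of the 9 genes (vertical axes from 0) in the 3 libraries of TRAM2-KO1, TRAM2-KO2 and control; points are libraries A, B and C from left to right, and bars are the mean ± SD. The TRAM2-KO1 and TRAM2-KO2 points of SLC7A11, NQO1 and SRXN1 all lie above the control points, and those of TXNRD1 do so for TRAM2-KO1 only. Of all 15139 tested genes, 670 lie above control in this way with both guides and 1801 with TRAM2-KO1.

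SLC7A11, GCLM and GCLC serve glutathione synthesis, and of these SLC7A11 rose with both guides. SLC7A11 (chromosome 4, 139085251 to 139163503, minus strand) encodes xCT, the subunit that exchanges cystine for glutamate. Its level was 61.0, 64.4 and 63.9 CPM in TRAM2-KO1 libraries, 60.1, 65.9 and 66.3 CPM in TRAM2-KO2 libraries and 53.1, 49.1 and 52.6 CPM in control libraries. All 6 libraries with a TRAM2 guide were above all control libraries, as they were for 670 of all 15139 tested genes. The log2FC was 0.29 (SE 0.0492; edgeR adjusted p = 0.00928) with TRAM2-KO1, 0.31 (SE 0.0490; adjusted p = 0.00468) with TRAM2-KO2 and 0.30 (SE 0.0430; adjusted p = 0.00241) for the mean of both. The guides differed by 0.02 (95% interval -0.08 to 0.13; adjusted p = 0.842).

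The rise of SLC7A11 in reads was not seen in its summed TPM, which was 7.74 ± 0.818 in TRAM2-KO1 and 8.29 ± 1.24 in TRAM2-KO2 cells, against 7.50 ± 0.973 in control cells. The reads were split over 2 transcripts. The coding transcript, ENST00000280612, took 97.7% to 100% of them and has an effective length of 9396 nt, and a short transcript marked for nonsense-mediated decay (NMD), ENST00000509248, has 548 nt. The coding transcript stood at 7.02, 7.58 and 7.33 TPM in TRAM2-KO1 libraries, 6.95, 8.01 and 7.91 TPM in TRAM2-KO2 libraries and 6.13, 5.69 and 6.11 TPM in control libraries. Its mean was 1.22 times the control mean with TRAM2-KO1 and 1.28 times with TRAM2-KO2, and neither group overlapped control. The short transcript had 0, 0 and 16.8 estimated reads in TRAM2-KO1 libraries, 0, 16.6 and 8.35 in TRAM2-KO2 libraries and 13.0, 12.4 and 29.7 in control libraries. These few reads are divided by a short length and so made up 1.52 TPM of the control mean. With offsets for the mean transcript length of each gene, SLC7A11 did not pass the test (log2FC 0.06 with TRAM2-KO1 and 0.12 with TRAM2-KO2; adjusted p = 0.868 and 0.806). For TRAM2-KO1 the call also depended on single libraries, with an adjusted p of 0.0652 without control B and 0.0592 without TRAM2-KO1 C. The log2FC was 0.24 with TRAM2-KO1 A alone. With the GC trend removed the log2FC was 0.23 (adjusted p = 0.00619) with TRAM2-KO1 and 0.31 (adjusted p = 0.000552) with TRAM2-KO2.

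**Figure D2:**
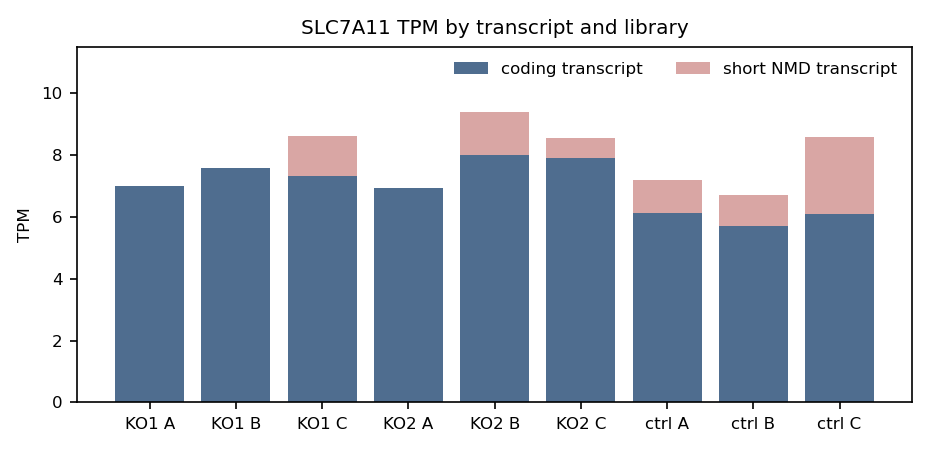
SLC7A11 abundance in TPM (vertical axis) in each library of TRAM2-KO1, TRAM2-KO2 and control, stacked by transcript. The coding transcript lies at 6.95 TPM or more in the 6 libraries with a TRAM2 guide and at 6.13 TPM or less in control, and the short NMD transcript adds 0 to 2.48 TPM.

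GCLM and GCLC encode the modifier and the catalytic subunit of glutamate-cysteine ligase, the rate-limiting enzyme of glutathione synthesis. GCLM (chromosome 1, 94350755 to 94375012, minus strand) had 88.9, 100.4 and 93.7 CPM in TRAM2-KO1 libraries, 88.8, 91.3 and 92.1 CPM in TRAM2-KO2 libraries and 94.1, 89.6 and 91.6 CPM in control libraries. The groups overlapped, and the log2FC was 0.04 (SE 0.0443; edgeR adjusted p = 0.687) with TRAM2-KO1 and -0.02 (SE 0.0442; adjusted p = 0.940) with TRAM2-KO2. GCLC (chromosome 6, 53362139 to 53481768, minus strand) had 55.3, 57.7 and 56.4 CPM in TRAM2-KO1 libraries, 51.0, 53.2 and 52.7 CPM in TRAM2-KO2 libraries and 55.0, 56.6 and 56.4 CPM in control libraries. Every TRAM2-KO2 library was below every control and every TRAM2-KO1 library. Of all 15139 tested genes, 1869 were likewise below control and 1803 below TRAM2-KO1. The GCLC difference did not pass the correction, with a log2FC of -0.10 between TRAM2-KO2 and control (SE 0.0347; edgeR adjusted p = 0.184) and -0.11 between TRAM2-KO2 and TRAM2-KO1 (adjusted p = 0.127). GCLC reads were spread over 14 transcripts, and the estimated reads of 1 of them, ENST00000643939, were 0 in the A libraries of TRAM2-KO1 and control and in TRAM2-KO2 C and between 127 and 259 in the other 6, so the split of this gene was unstable between libraries of 1 group.

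The thioredoxin branch is represented by TXNRD1 and SRXN1. TXNRD1 (chromosome 12, 104609557 to 104744085, plus strand) had 734, 771 and 762 CPM in TRAM2-KO1 libraries, 675, 661 and 690.2 CPM in TRAM2-KO2 libraries and 690.1, 681 and 659 CPM in control libraries. In CPM the TRAM2-KO1 libraries were above all others, whereas TRAM2-KO2 and control libraries overlapped. In summed TPM all 3 groups overlapped, with 300.9, 331 and 334 in TRAM2-KO1, 284.8, 288 and 325 in TRAM2-KO2 and 303.5, 300.3 and 297 in control libraries. TXNRD1 rose with TRAM2-KO1 (log2FC 0.16, SE 0.0304; edgeR adjusted p = 0.0191), while the log2FC with TRAM2-KO2 was -0.00306 (SE 0.0304; 95% interval -0.07 to 0.06; adjusted p = 0.985). It fell in TRAM2-KO2 against TRAM2-KO1 (log2FC -0.16, SE 0.0304; 95% interval -0.23 to -0.09; adjusted p = 0.0242). Removal of the GC trend left the TRAM2-KO1 log2FC at 0.13 (adjusted p = 0.0108). The TRAM2-KO1 call was lost without any 1 of control A, B or C, and without TRAM2-KO1 B or C (adjusted p between 0.0587 and 0.114). The log2FC was 0.11 with TRAM2-KO1 A alone. The difference between the guides was lost without any 1 of control A or B, TRAM2-KO1 B or C, or TRAM2-KO2 A or B (adjusted p between 0.0585 and 0.138), and was -0.12 with TRAM2-KO1 A alone. The leading TXNRD1 transcript, ENST00000525566, had 62.1, 97.0 and 83.2 TPM in TRAM2-KO1 libraries, 58.7, 51.2 and 65.5 TPM in TRAM2-KO2 libraries and 59.4, 67.5 and 67.6 TPM in control libraries. TRAM2-KO1 A lay within the control range for that transcript and TRAM2-KO1 B and C lay above it.

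SRXN1 (chromosome 20, 627259 to 633844, minus strand), sulfiredoxin, restores over-oxidised peroxiredoxins and has a single annotated transcript here, so its reads involve no split. It had 134, 138 and 134 CPM in TRAM2-KO1 libraries, 137, 136 and 137 CPM in TRAM2-KO2 libraries and 119, 128 and 126 CPM in control libraries. All libraries with a TRAM2 guide were above all control libraries. The log2FC was 0.12 (SE 0.0339; edgeR adjusted p = 0.0983) with TRAM2-KO1 and 0.13 (SE 0.0338; adjusted p = 0.0599) with TRAM2-KO2. SRXN1 rose in the mean of both guides by 0.13 (SE 0.0295; adjusted p = 0.0415). That call held in 8 of 20 alternative settings, with adjusted p values between 0.0122 and 0.350, and was lost without any 1 library other than TRAM2-KO1 A (0.0570 to 0.228). Its abundance was 59.3, 62.6 and 59.9 TPM in TRAM2-KO1 libraries, 61.1, 64.2 and 63.1 TPM in TRAM2-KO2 libraries and 53.5, 57.9 and 57.9 TPM in control libraries, again without overlap between guide and control libraries.

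NQO1, HMOX1 and AKR1C1 act on quinones, haem and carbonyls. NQO1 (chromosome 16, 69740899 to 69760571, minus strand) had 224, 241 and 222 CPM in TRAM2-KO1 libraries, 234, 229 and 224 CPM in TRAM2-KO2 libraries and 208, 209 and 208 CPM in control libraries. The control libraries lay close together and below all 6 libraries with a TRAM2 guide. The log2FC was 0.14 (SE 0.0349) with either guide (edgeR adjusted p = 0.0689 with TRAM2-KO1 and 0.0580 with TRAM2-KO2). NQO1 rose in the mean of both guides (log2FC 0.14, SE 0.0304; adjusted p = 0.0324). With DESeq2, the tool the study used, it passed with each guide (adjusted p = 0.0115 with TRAM2-KO1 and 0.00695 with TRAM2-KO2). The call for the mean held in 12 of 20 alternatives, with adjusted p values from 0.00118 to 0.269, and was lost without any 1 control or TRAM2-KO2 library (0.0517 to 0.138). The guides differed by -0.000869 (95% interval -0.08 to 0.08). Nearly all NQO1 reads lay on 3 coding transcripts, with mean shares of 52.4%, 25.0% and 21.4%.

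HMOX1 (chromosome 22, 35776354 to 35790207, plus strand), heme oxygenase 1, is the most inducible haem-degrading enzyme. It had 15.7, 15.0 and 18.2 CPM in TRAM2-KO1 libraries, 15.9, 14.1 and 13.7 CPM in TRAM2-KO2 libraries and 15.8, 16.0 and 14.3 CPM in control libraries. The groups overlapped (log2FC 0.09, SE 0.0872, edgeR adjusted p = 0.627 with TRAM2-KO1, and -0.08, SE 0.0876, adjusted p = 0.806 with TRAM2-KO2). The 95% interval was -0.10 to 0.28 with TRAM2-KO1, which leaves room for a rise of the size seen for NQO1, and -0.27 to 0.12 with TRAM2-KO2, which does not. AKR1C1 (chromosome 10, 5005445 to 5025475, plus strand), an aldo-keto reductase, had only 30 to 69 reads per library. Its level was 1.66, 2.40 and 2.69 CPM in TRAM2-KO1 libraries, 1.76, 1.58 and 1.93 CPM in TRAM2-KO2 libraries and 1.76, 2.17 and 1.23 CPM in control libraries. The log2FC was 0.38 (SE 0.240; adjusted p = 0.424) with TRAM2-KO1 and 0.03 (SE 0.243; adjusted p = 0.980) with TRAM2-KO2, and a change of that size was not detectable at this depth. AKR1C1 shares long stretches of near-identical sequence with AKR1C2 and AKR1C3, so its reads are uncertain. AKR1C2 had 1.93 to 2.81 CPM and AKR1C3 at most 0.830 CPM, and neither passed the test (the highest log2FC was 1.30 for AKR1C3 with TRAM2-KO2, from 11 to 21 reads against 3 to 8 reads in control, adjusted p = 0.190).

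Counted together, 2 of the 9 members rose and 0 fell with TRAM2-KO1 (edgeR), where 0.753% of all tested genes rose and 2.15% fell. With TRAM2-KO2, 1 of 9 rose and 0 fell, beside 1.73% and 2.49% of all genes. In the mean of both guides 3 rose and 0 fell, beside 1.33% and 2.51%. In TRAM2-KO2 against TRAM2-KO1, 0 rose and 1 fell, beside 1.41% and 0.865%. With no adjustment, 4, 4, 4 and 2 members had an edgeR p under 0.05 in these comparisons. So did 2806, 2273, 2245 and 3004 of all 15139 tested genes. In CPM, all libraries of the first-named group lay above all those of the second for 4, 3, 3 and 0 members, and below for 0, 1, 0 and 2. Over all tested genes this held for 1801, 1707, 670 and 1440 above and for 1676, 1869, 714 and 1803 below. The member median of the log2FC was 0.12 with TRAM2-KO1, -0.00306 with TRAM2-KO2 and 0.08 for the mean of both, beside 0.00507, -0.00317 and -0.00293 over all tested genes. With TRAM2-KO1 all 9 members had a positive log2FC. Libraries B and C of that guide had a negative correlation with GC content. The 6108 tested genes with a GC content under 45% had a median of 0.05 with TRAM2-KO1 and -0.00333 with TRAM2-KO2. The 7 members in that GC range had medians of 0.14 with TRAM2-KO1 and -0.00306 with TRAM2-KO2. With the GC trend removed the TRAM2-KO1 median over the 9 members was 0.13, and 3 members, NFE2L2 (-0.03), GCLM (-0.01) and GCLC (-0.02), had a negative log2FC. By library, the member median relative to the control mean was 0.04, 0.15 and 0.11 in the TRAM2-KO1 libraries, 0.05, -0.03 and 0.03 in the TRAM2-KO2 libraries and 0.03, 0.01 and -0.00249 in the control libraries. The median of TRAM2-KO1 A was near those of the control libraries, although SLC7A11, TXNRD1, NQO1 and SRXN1 stood above every control library in CPM there too.

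**Figure D3:**
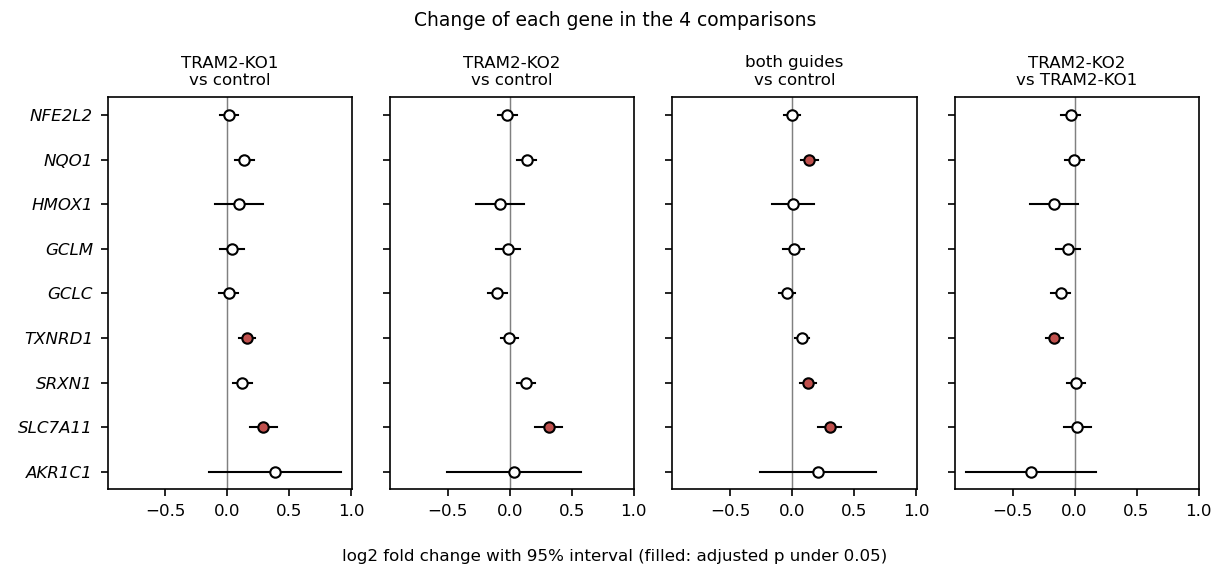
Log2 fold change of each gene (horizontal axis) with its 95% interval in 4 panels, namely each guide and their mean set against control, and TRAM2-KO2 set against TRAM2-KO1. Filled points had an edgeR adjusted p under 0.05; these are 2, 1, 3 and 1 genes, and AKR1C1, the least abundant gene, has the widest intervals.

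Across the 9 libraries SLC7A11, NQO1 and SRXN1 varied together, with Pearson r of 0.81 for SLC7A11 with NQO1, 0.79 for SLC7A11 with SRXN1 and 0.88 for NQO1 with SRXN1. NFE2L2 had r of -0.02, -0.01 and 0.20 with these 3 genes. The 9 points of such a correlation share their libraries and the group means, so the values are a description. By r over the 9 libraries among 9229 tested genes of at least 10 CPM, the genes most like NFE2L2 were JMJD1C (0.94), ARHGEF26 (0.89) and ASCC3 (0.89). Those most like SLC7A11 were SLC35F2 (0.98), FMNL2 (0.97) and MAGT1 (0.97).

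Of 10 regulators of NRF2, 1 changed, falling with each guide, beside the 2.15% and 2.49% of all genes that fell with TRAM2-KO1 and TRAM2-KO2. NFE2L1, a relative of NRF2 that also binds antioxidant response elements and is known for inducing proteasome genes, had 213, 199 and 218 CPM in TRAM2-KO1 libraries, 229.7, 229 and 229 CPM in TRAM2-KO2 libraries and 269.9, 276 and 269 CPM in control libraries. No library with a TRAM2 guide reached the control range. The libraries of both guides were all below control for 714 of all 15139 tested genes. NFE2L1 fell with TRAM2-KO1 (log2FC -0.37, SE 0.0342; edgeR adjusted p = 0.000189) and TRAM2-KO2 (-0.24, SE 0.0341; adjusted p = 0.00233). It also fell with the GC trend removed (-0.32 with TRAM2-KO1; adjusted p = 6.59e-05), and its log2FC was -0.35 with TRAM2-KO1 A alone. KEAP1, the NRF2 inhibitor, had 37.4, 32.3 and 34.5 CPM in TRAM2-KO1 libraries, 39.7, 39.6 and 37.3 CPM in TRAM2-KO2 libraries and 39.7, 40.2 and 39.2 CPM in control libraries. TRAM2-KO1 libraries were below control, but the log2FC of -0.19 did not pass the correction (edgeR adjusted p = 0.107) and was -0.04 (adjusted p = 0.680) with the GC trend removed. Without TRAM2-KO1 A, KEAP1 (-0.25; adjusted p = 0.0117) and MAFK (-0.48; adjusted p = 0.00682) passed with TRAM2-KO1, the libraries left being those with the GC trend. CUL3 and RBX1 of the ligase that KEAP1 serves, the repressor BACH1, the small MAF genes MAFF, MAFG and MAFK, SQSTM1, which sequesters KEAP1, and BTRC, part of a further ligase for NRF2, did not pass in any comparison with all 9 libraries (log2FC against control between -0.29 for MAFK with TRAM2-KO1 and 0.08 for CUL3 with TRAM2-KO1).

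The wider antioxidant lists showed small changes in both directions. Without the 9 members they held 98 genes, the regulators included, of which 87 were tested. With TRAM2-KO1, 1 rose and 1 fell, where 0.753% of all tested genes rose and 2.15% fell. With TRAM2-KO2, 4 rose and 7 fell, beside 1.73% and 2.49% of all genes. In the mean of both guides 5 rose and 4 fell, beside 1.33% and 2.51%, and 3 rose and 1 fell in TRAM2-KO2 against TRAM2-KO1, beside 1.41% and 0.865%. Their median log2FC was 0.00214 with TRAM2-KO1 and -0.00407 with TRAM2-KO2. Without TRAM2-KO1 A, 5 rose and 11 fell with TRAM2-KO1. In that setting 1952 of all 15410 tested genes passed with TRAM2-KO1, against 440 of 15139 with all 9 libraries.

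Among the glutathione genes MGST1, a membrane-bound glutathione transferase, had 207, 236 and 224 CPM in TRAM2-KO1 and 217, 221 and 214 CPM in TRAM2-KO2 libraries, against 194, 189.5 and 191 CPM in control libraries. It rose with TRAM2-KO1 (log2FC 0.21; edgeR adjusted p = 0.0229; log2FC 0.11 with TRAM2-KO1 A alone) and with TRAM2-KO2 (0.18; adjusted p = 0.0401). GPX8, an endoplasmic reticulum peroxidase, fell with TRAM2-KO2 (-0.18; adjusted p = 0.0426). In the thioredoxin list PRDX6, a peroxiredoxin, rose in the mean of both guides (0.10; adjusted p = 0.0420). That log2FC of PRDX6 was 0.084 with the GC trend removed (adjusted p = 0.0165) and 0.082 with TRAM2-KO1 A alone.

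Of 10 tested haem and iron genes, 3 fell with TRAM2-KO2 and 0 rose, and the list median was -0.03. The ferritin light chain gene FTL had 572, 535 and 548 CPM in TRAM2-KO2 libraries, against 624, 609 and 613 CPM in control libraries. FTL (log2FC -0.16; edgeR adjusted p = 0.0199), the ferritin heavy chain gene FTH1 (-0.11; adjusted p = 0.0461) and the transferrin receptor gene TFRC (-0.15; adjusted p = 0.0302) fell, beside the 2.49% of all genes that fell with this guide. With TRAM2-KO1 their log2FC was -0.02, 0.00696 and -0.09, and 0 genes of the list passed. The difference between the guides did not pass the correction for FTL (-0.13; adjusted p = 0.0612) or FTH1 (-0.12; adjusted p = 0.0527). With the GC trend removed TFRC passed with TRAM2-KO1 (-0.14; adjusted p = 0.00866), and the difference between the guides passed for FTL (-0.19; adjusted p = 0.00151) and FTH1 (-0.11; adjusted p = 0.0232).

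ALDH1A3 and TRIM16 rose with TRAM2-KO2 by more than any member did. ALDH1A3, a retinaldehyde dehydrogenase, had 79.3, 81.0 and 78.9 CPM in TRAM2-KO2 libraries, against 60.2, 63.0 and 60.2 CPM in TRAM2-KO1 libraries and 54.1, 57.8 and 55.1 CPM in control libraries. It rose with TRAM2-KO2 (log2FC 0.52, SE 0.0366; edgeR adjusted p = 2.7e-05) and in TRAM2-KO2 against TRAM2-KO1 (0.38; adjusted p = 0.000663). It was the 1 gene of the 87 tested in the wider lists that passed with a log2FC above 0.5 with TRAM2-KO2. Of all 15139 tested genes, 98 passed with a log2FC beyond 0.5 in either direction with that guide. TRIM16, which encodes a tripartite motif protein, rose with TRAM2-KO2 (0.47; adjusted p = 0.000149) and against TRAM2-KO1 (0.35; adjusted p = 0.00276). AKR1B1, aldose reductase, rose with TRAM2-KO2 (0.24; adjusted p = 0.00278) and against TRAM2-KO1 (0.21; adjusted p = 0.0159). PON2, a paraoxonase, fell with TRAM2-KO2 (-0.21; adjusted p = 0.00538) and against TRAM2-KO1 (-0.18; adjusted p = 0.0237). The PON2 difference between the guides was -0.14 with the GC trend removed (adjusted p = 0.00924) and -0.12 with TRAM2-KO1 A alone. LRP8, a lipoprotein receptor for selenoprotein P, fell in reads with TRAM2-KO2 (-0.16; adjusted p = 0.0278). The summed TPM of LRP8 ran the other way, with 23.9, 22.2 and 20.8 in TRAM2-KO2 libraries against 19.6, 18.3 and 20.4 in control libraries, so its direction depended on the scale.

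SLC7A11 is also a target of ATF4, the transcription factor of the amino acid response. ATF4 had 199.9, 191 and 192 CPM in TRAM2-KO1 and 203, 191 and 191 CPM in TRAM2-KO2 libraries, against 191, 190.2 and 185 CPM in control libraries. Its summed TPM was 176 ± 2.32 in TRAM2-KO1 and 179 ± 1.53 in TRAM2-KO2 cells, against 169 ± 0.753 in control cells, without overlap between guide and control libraries. Of the 10 genes on the ATF4 list, 0 passed against control with either guide or their mean in edgeR. With no adjustment, 2, 3 and 2 had a p under 0.05, beside 2806, 2273 and 2245 of all 15139 tested genes. All guide libraries lay above all control libraries in CPM for 2 of the 10 with TRAM2-KO1, 4 with TRAM2-KO2 and 2 with both, and below for 0. Of all tested genes 1801, 1707 and 670 lay above and 1676, 1869 and 714 below. A part of ATF4 in the level of SLC7A11 was not tested. SLC7A5, the large neutral amino acid transporter on that list, was higher in TRAM2-KO2 than in TRAM2-KO1 cells (log2FC 0.37; edgeR adjusted p = 0.0267). That difference was 0.225 with the GC trend removed (adjusted p = 0.000719) and 0.226 with TRAM2-KO1 A alone. With the GC trend removed SLC7A5 also passed with TRAM2-KO2 against control (0.25; adjusted p = 0.000114, against 0.115 otherwise).

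**Figure D4:**
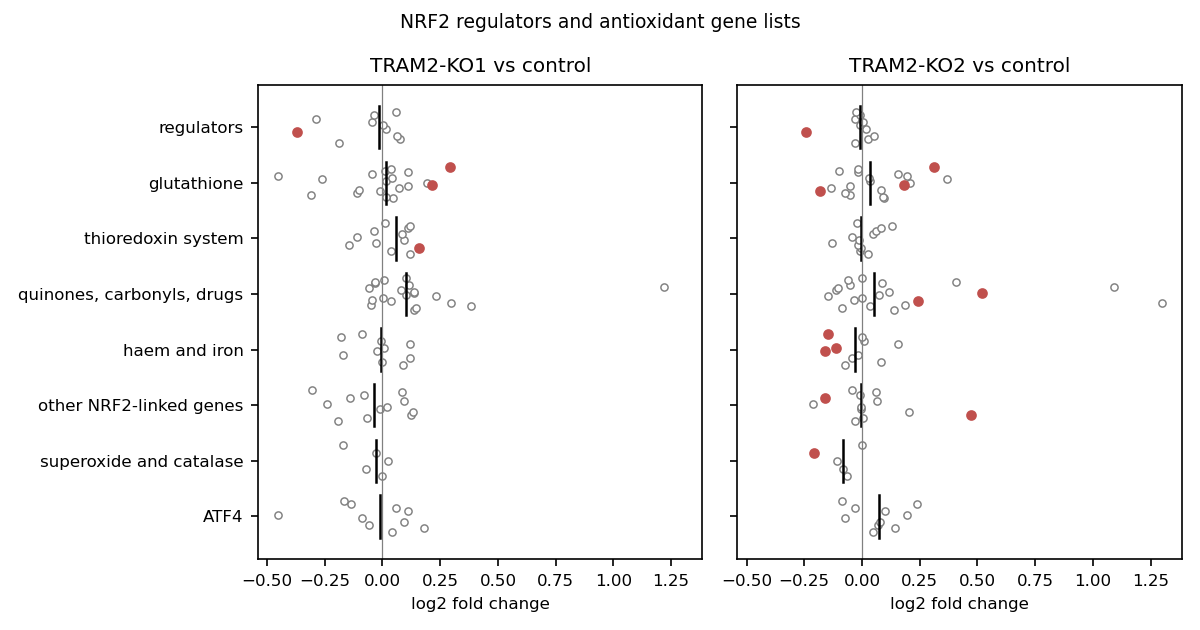
Log2 fold change (horizontal axis) of every tested gene of 8 lists, the members included, for TRAM2-KO1 and TRAM2-KO2 against control. Filled points had an edgeR adjusted p under 0.05 and black lines are list medians; most genes lie near 0, the filled point on the left of the regulator row is NFE2L1 and those on the right of the TRAM2-KO2 panel include ALDH1A3 and TRIM16.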

How the data were processed

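The 9 libraries were made with a TruSeq kit from poly(A)+ RNA. Reads were trimmed by the authors with cutadapt and assigned to transcripts with Salmon. The tool versions, transcript set and genome build were not given in the sources used here. The deposited files hold, for each transcript, the estimated counts that Salmon gave the authors, not normalised, and the TPM values the authors obtained with them. The deposited effective length of a transcript, another measure in the files, was the same in all libraries. The design text of the series names other conditions than the samples do, and groups were taken from the sample labels. Whether a group's cultures were independent is stated by that text alone, so p values may measure technical spread.

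GENCODE release 44 on GRCh37 gave the gene of each transcript (220336 of 226030 transcripts, and 1.51% to 1.55% of the reads had no gene), counts were summed per gene and rounded, and 15139 of 59293 genes passed edgeR's filterByExpr (minimum 10 reads). A quasi-likelihood model (edgeR 4.0.16, R 4.3.3, TMM scaling) was fitted to all 9 libraries, and p values were two-sided and adjusted over all tested genes by the Benjamini-Hochberg method. "Rose" and "fell" mean an adjusted p under 0.05. Intervals are at 95%, and the common dispersion corresponded to a biological coefficient of variation of 5.86%. The procedure was tested on simulated data. DESeq2 1.42.0, limma 3.58.1 (voom, and log2 of TPM plus 0.1), other filters and scalings, GC and length offsets, a replicate block and leaving out each library were the alternatives. TRAM2-KO1 represented by its library A alone was added after the data were seen, and that library is then assumed to vary like the other groups. That fit is among the alternatives counted for TRAM2-KO1, for the mean of both guides and between the guides, and a call lost in it may reflect the missing replicates.

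The members, the 9 gene lists and the markers were chosen with earlier results of these data known. Named are the members, TRAM2, AKR1C2, AKR1C3, the regulators, and up to 4 genes of each further list that passed in any comparison, with ATF4 named after its values were seen. The list of NADPH supply genes is not reported here by itself. For NFE2L2 and SLC7A11 the 3 genes with the highest correlation are named. Promoter windows come from RefSeq on GRCh38.p14. PECAM1 was not matched among the markers.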

Additional observations from a re-analysis of the deposited data

Results flagged for a closer look

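The effect of TRAM2-KO2 on TXNRD1 differed from that of TRAM2-KO1, by a test of the difference itself. The log2 fold change of TRAM2-KO2 against TRAM2-KO1 was -0.162 (edgeR adjusted p = 0.0242). All 3 TRAM2-KO2 libraries were below all 3 TRAM2-KO1 libraries in CPM, but not in summed TPM. Both guides share the control libraries. The correlation with GC content was -0.528 in TRAM2-KO1 B and -0.359 in TRAM2-KO1 C. Among the TRAM2-KO2 libraries it ran from -0.0898 to 0.395, so library A of TRAM2-KO2 had a GC trend in the opposite direction. With the GC trend removed the TXNRD1 difference was -0.12 (adjusted p = 0.0181). The call was lost in 11 of 21 alternatives, with adjusted p values up to 0.529, among them the replicate block (0.0504), transcript length offsets (0.345), summed TPM with limma (0.529), only the 2 groups compared (0.0970) and the omission of any 1 of 6 libraries (0.0585 to 0.138).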

How the results depend on the processing

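No member result changed direction while past the test, and sign changes were limited to values that did not pass. The numbers of members past the test were 2 with TRAM2-KO1, 1 with TRAM2-KO2, 3 for the mean of both guides and 1 between the guides. With transcript length offsets and with limma on summed TPM all 4 counts were 0. With TRAM2-KO2, 3 members passed with DESeq2, with a mean of at least 5 CPM, with only the 2 groups compared, with GC offsets and with the replicate block and GC offsets together, and 2 passed with no filter on low counts. With only the 2 groups compared the count was 1 for TRAM2-KO1 and 0 between the guides. Leaving out 1 library gave 0 to 4 members with TRAM2-KO1, 1 to 3 with TRAM2-KO2, 1 to 3 for the mean and 0 to 1 between the guides. Libraries of the same letter did not deviate together (r from -0.0881 to 0.107). That cannot show whether cultures of the same letter were handled together. With the replicate block the counts were 2, 1, 2 and 0, the last being TXNRD1 with an adjusted p of 0.0504. Over all tested genes the number past the test ranged from 85 to 1952 around 440 with TRAM2-KO1, from 106 to 1068 around 639 with TRAM2-KO2, from 104 to 1040 around 581 for the mean and from 35 to 1828 around 344 between the guides. The lowest were with limma on summed TPM, and the highest were without TRAM2-KO1 A, except with TRAM2-KO2, where it was with GC offsets. Depth limits AKR1C1, with 30 to 69 reads per library.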

Other observations

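The canonical NQO1 transcript, ENST00000320623, had 0 estimated reads in 8 of 9 libraries and 11.9 in TRAM2-KO2 C, although NQO1 as a gene had 5068 to 6253 reads. Its effective length is 2272 nt, and that of the leading NQO1 transcript, ENST00000379047, is 2278 nt. For AKR1C1 the leading transcript, ENST00000442997, has an effective length of 495 nt and took 43.1% of the reads on average.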
